A study of Mus musculus with 11 samples.

Results

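The Gsdme/Mpp6, Aass and Nefm loci are 3 places in the mouse genome, on chromosomes 6 and 14, at which a region of open chromatin inside a gene body followed the strain origin of an interval of chromosome 13. All regions of the deposited table that start within 3 windows were taken: chr6:50100000-50300000 around Gsdme and Mpp6, chr6:23050000-23150000 around Aass, and chr14:68080000-68150000 around Nefm. They were 54 of the 248336 regions in the table, with 32 in the Gsdme/Mpp6 window, 12 in the Aass window and 10 in the Nefm window. In each window, the region that overlaps a coding exon and follows the chromosome 13 interval is called the exon region, and it is set against the promoter regions of the same genes. The exon regions were chosen by their counts, as differing in the 2 comparisons that exchange the interval, so their values in every comparison among these libraries are given as a description, with no test.

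Chromatin accessibility was measured by ATAC-seq, which counts sequenced ends of DNA cut by the Tn5 transposase, in mouse embryonic stem cells. The 4 lines were C57BL/6J (B6, cell line B6 5-1, 3 libraries), DBA/2J (D2, line D2 5-5, 3 libraries), and reciprocal congenics for part of chromosome 13. B6-13D2 (strain B6.D2-(rs30079041-rs51756099)/Bakr, line QJ 6-1, 2 libraries) has a B6 genome with the D2 interval. D2-13B6 (strain D2.B6-(rs29224292-rs13469455)/Bakr in the sample labels, line XE 2-4, 3 libraries) has a D2 genome with the B6 interval, and the series' design text names another distal marker for it. All lines grew in serum medium with LIF and 1 µM of the MEK inhibitor PD0325901 and 3 µM of the GSK3 inhibitor CHIR99021. Each genotype was 1 cell line and its libraries were technical replicates, so that errors and tests reflect technical spread alone and genotypes cannot be told apart from the cell lines that stand for them. The 2 interval comparisons were B6-13D2 against B6 and D2 against D2-13B6, both with the D2 interval first. They share no library, whereas the other comparisons reuse the same libraries.

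Gsdme encodes gasdermin E, a pore-forming protein that caspase cleavage turns into an executor of lytic cell death. Mpp6 encodes a membrane-associated guanylate kinase, a scaffold of cell junctions, and its 3′ end overlaps that of Gsdme on the opposite strand. Aass encodes the mitochondrial enzyme that opens the main pathway of lysine breakdown. Nefm encodes the medium neurofilament chain, an intermediate filament of neurons, next to Nefl, the light chain. In embryonic stem cells, promoters rich in CpG are commonly open whether or not the gene is active, whereas repeat-derived DNA inside introns is commonly kept closed by repressive chromatin.

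The exon regions were mostly not coding sequence. On GRCm38 with the GENCODE M21 annotation, the Gsdme/Mpp6 exon region (chr6:50196337-50197829, 1492 bp) held 129 bp of Mpp6 coding sequence, exon 13 of 14 in some annotated transcripts, which is 8.65% of the region, and lay in an intron of Gsdme. In the Aass exon region (chr6:23088821-23091426, 2605 bp), 141 bp or 5.41% were coding exon 18 of 24. The Nefm exon region (chr14:68115756-68117659, 1903 bp) overlapped 67 bp (3.52%) of exon 3 of 4 of the longer Nefm transcript and lay 1624 bp past the 3′ end of the shorter one. Most bases of these regions were therefore intronic or flanking DNA, and that DNA held a different repeat at each locus.

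The Gsdme/Mpp6 exon region held a tandem array of 397 bp (chr6:50196878-50197274, 26.6% of the region) with a 39-bp unit in 10.2 copies. Of 10 whole units, 7 were identical to the consensus, and a stretch of 30 bases was the same in all 10. The unit and the start of the array (chr6:50196878-50197177, plus strand, GRCm38) are shown because no other locus in the genome matched the array at 80% identity over at least 50% of its length. Capitals mark the stretch found in every unit, where it is whole.
Gsdme/Mpp6 repeat unit: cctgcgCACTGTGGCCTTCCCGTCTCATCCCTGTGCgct
Gsdme/Mpp6 array, first 300 bases: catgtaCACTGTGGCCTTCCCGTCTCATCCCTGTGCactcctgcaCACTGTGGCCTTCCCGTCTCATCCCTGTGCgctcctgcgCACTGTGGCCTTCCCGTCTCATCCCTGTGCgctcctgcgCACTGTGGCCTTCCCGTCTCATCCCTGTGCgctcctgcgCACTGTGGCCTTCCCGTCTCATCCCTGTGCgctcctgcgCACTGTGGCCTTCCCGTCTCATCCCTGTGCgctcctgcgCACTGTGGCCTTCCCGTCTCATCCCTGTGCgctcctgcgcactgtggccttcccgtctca
The array held 25 of the 39 CpG dinucleotides of the region and had no soft-masked base, meaning that the reference does not mark it as a repeat.

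The Aass exon region shared a direct repeat with the region at -4.80 kb from it (chr6:23084869-23085782), which also followed the interval. The copies aligned over 364 columns at 87.9% identity on the same strand, with 5250 bp between them. The first 240 columns are shown for the copy in the exon region (chr6:23090791-23091030) and for the copy in the second region (chr6:23085195-23085421), plus strand. Capitals mark the 30 columns that differ, including bases that only the exon-region copy has.
Aass exon-region copy: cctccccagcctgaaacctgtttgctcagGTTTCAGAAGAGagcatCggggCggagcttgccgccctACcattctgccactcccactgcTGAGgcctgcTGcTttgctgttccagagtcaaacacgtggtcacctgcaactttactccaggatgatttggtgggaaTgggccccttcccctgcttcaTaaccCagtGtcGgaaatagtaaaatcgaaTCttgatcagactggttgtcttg
Aass second-region copy: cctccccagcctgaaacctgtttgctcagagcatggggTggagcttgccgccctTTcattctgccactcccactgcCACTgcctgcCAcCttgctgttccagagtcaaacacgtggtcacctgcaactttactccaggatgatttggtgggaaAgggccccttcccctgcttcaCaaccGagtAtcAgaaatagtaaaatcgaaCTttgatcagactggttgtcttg

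The Nefm exon region held a soft-masked block of 550 bp (chr14:68116649-68117198, 28.9% of the region) that occurs widely in the genome. At 80% identity or more over at least 50% of its length, 1052 other loci matched it, against 257 for the Aass repeat and 0 for the Gsdme/Mpp6 array. A stretch of the block (chr14:68116650-68116909) is shown above the same stretch of a copy in the region chr12:88339654-88342221 (chr12:88340106-88340354, 93.0% identity over the whole alignment). That region was picked from those higher with the D2 interval in both interval comparisons. Capitals mark the 21 of 260 aligned columns that differ.
Nefm block: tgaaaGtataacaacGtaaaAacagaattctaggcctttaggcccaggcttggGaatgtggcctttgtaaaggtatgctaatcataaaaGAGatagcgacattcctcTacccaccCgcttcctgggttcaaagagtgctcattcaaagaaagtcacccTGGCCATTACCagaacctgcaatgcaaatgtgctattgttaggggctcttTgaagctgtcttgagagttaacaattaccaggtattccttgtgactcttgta
Chromosome 12 copy: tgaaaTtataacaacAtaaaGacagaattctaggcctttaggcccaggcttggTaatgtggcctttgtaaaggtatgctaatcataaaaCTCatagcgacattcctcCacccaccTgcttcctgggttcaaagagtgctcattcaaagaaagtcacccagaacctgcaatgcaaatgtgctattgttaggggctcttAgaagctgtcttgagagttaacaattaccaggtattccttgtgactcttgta
Between the 3 exon regions, the longest exact stretch in common was 10 to 12 bases, so no long exact sequence was shared by the loci. Longer stretches with mismatches were not searched for between the whole regions.

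Total counts per library ran from 15198496 to 43042955, and the D2-background libraries were deeper. Regions were compared by edgeR's quasi-likelihood test in a single fit of all 11 libraries, with Benjamini-Hochberg adjustment over 246840 regions. All 54 regions of the windows were tested. Levels are normalised CPM, counts scaled to the TMM-adjusted library total. Promoter regions lie within 1000 bp of an annotated start. As a check of the cell label, promoter regions of 8 of 8 embryonic stem cell marker genes were in the table. Their summed level was 388 to 409 normalised CPM in B6 libraries, 393 to 415 in B6-13D2, 256 to 293 in D2-13B6 and 355 to 397 in D2. For 5 of 6 fibroblast markers, it was 63.5 to 72.03, 55.6 to 61.3, 117 to 159 and 70.8 to 83.6 in the same order. Col3a1 had no promoter region, and all fibroblast promoter regions in the table had counts in every line. The D2-13B6 line thus stood apart. In D2 against D2-13B6, 11 of 16 stem cell promoter regions were higher and 7 of 9 fibroblast promoter regions were lower in D2. Of 7 primitive endoderm promoter regions, 1 was higher and 2 lower, and of all 38070 promoter regions, 3060 and 5997. Klf4 lay in the other direction, at 69.2 in D2-13B6 against 52.1 in D2, but was not called (log2 fold change -0.41, adjusted p = 0.0609). Summed over all promoter regions, the level was 354753 to 368105 in B6, 354705 to 364228 in B6-13D2, 411986 to 589697 in D2-13B6 and 418449 to 463369 in D2. In B6-13D2 against B6, no promoter region of these marker lists passed. The part of the D2-13B6 line's difference in the results of the D2 background was not tested.

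Accessibility of the Gsdme/Mpp6 exon region was low in both lines with the B6 interval and high in both with the D2 interval. It was 1.80, 2.20 and 1.97 normalised CPM in the B6 libraries (54, 36 and 45 counts) and 5.96 and 9.07 in B6-13D2. In D2-13B6 it was 3.12, 3.55 and 4.02, and in D2 it was 11.8, 11.6 and 8.71. The highest library with the B6 interval, at 4.02, lay below the lowest with the D2 interval, at 5.96, while B6-13D2 and D2 overlapped. On the log2 scale the region was 1.93 ± 0.23 (SE) higher in B6-13D2 than in B6 and 1.59 ± 0.18 higher in D2 than in D2-13B6.

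The Aass exon region showed the same order of lines. Its level was 4.59, 3.78 and 4.20 normalised CPM in B6, 12.0 and 14.1 in B6-13D2, 6.16, 6.85 and 3.71 in D2-13B6, and 15.6, 14.2 and 19.7 in D2. Libraries with the D2 interval were all above those with the B6 interval, and the B6 and D2-13B6 libraries overlapped. The log2 differences were 1.63 ± 0.21 (SE) on the B6 background and 1.56 ± 0.18 on the D2 background.

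The Nefm exon region was at 3.83, 4.51 and 3.85 normalised CPM in B6 and at 12.2 and 14.7 in B6-13D2. D2-13B6 libraries gave 4.91, 7.88 and 5.02, and D2 libraries 15.7, 12.6 and 15.0. Here too the groups that differ in the interval did not overlap, and B6-13D2 and D2 did. The log2 differences were 1.74 ± 0.21 (SE) and 1.28 ± 0.18.

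In all 3 exon regions the order of the means, from low to high, was B6, D2-13B6, B6-13D2, D2. The means were 1.99 ± 0.200, 3.56 ± 0.454, 7.51 ± 2.20 and 10.7 ± 1.73 (SD) for Gsdme/Mpp6, 4.19 ± 0.405, 5.57 ± 1.65, 13.1 ± 1.48 and 16.5 ± 2.88 for Aass, and 4.06 ± 0.389, 5.94 ± 1.68, 13.5 ± 1.78 and 14.4 ± 1.63 for Nefm. With the interval held constant, the differences between backgrounds were smaller, which the choice of these regions by their interval differences favours. D2-13B6 was 0.85, 0.41 and 0.56 log2 units above B6 for Gsdme/Mpp6, Aass and Nefm, and D2 was 0.51, 0.34 and 0.10 above B6-13D2. The strain difference, D2 against B6, was 2.44, 1.97 and 1.84. Across the 11 libraries, log2 CPM of the exon regions correlated pairwise at Pearson's r of 0.905 to 0.960, a description only, since the regions were chosen for this pattern and share libraries and depth. They were chosen as the leading ones, by the larger p-value of the 2 interval comparisons, among 85 regions off chromosome 13 that were higher in both.

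**Figure D1:**
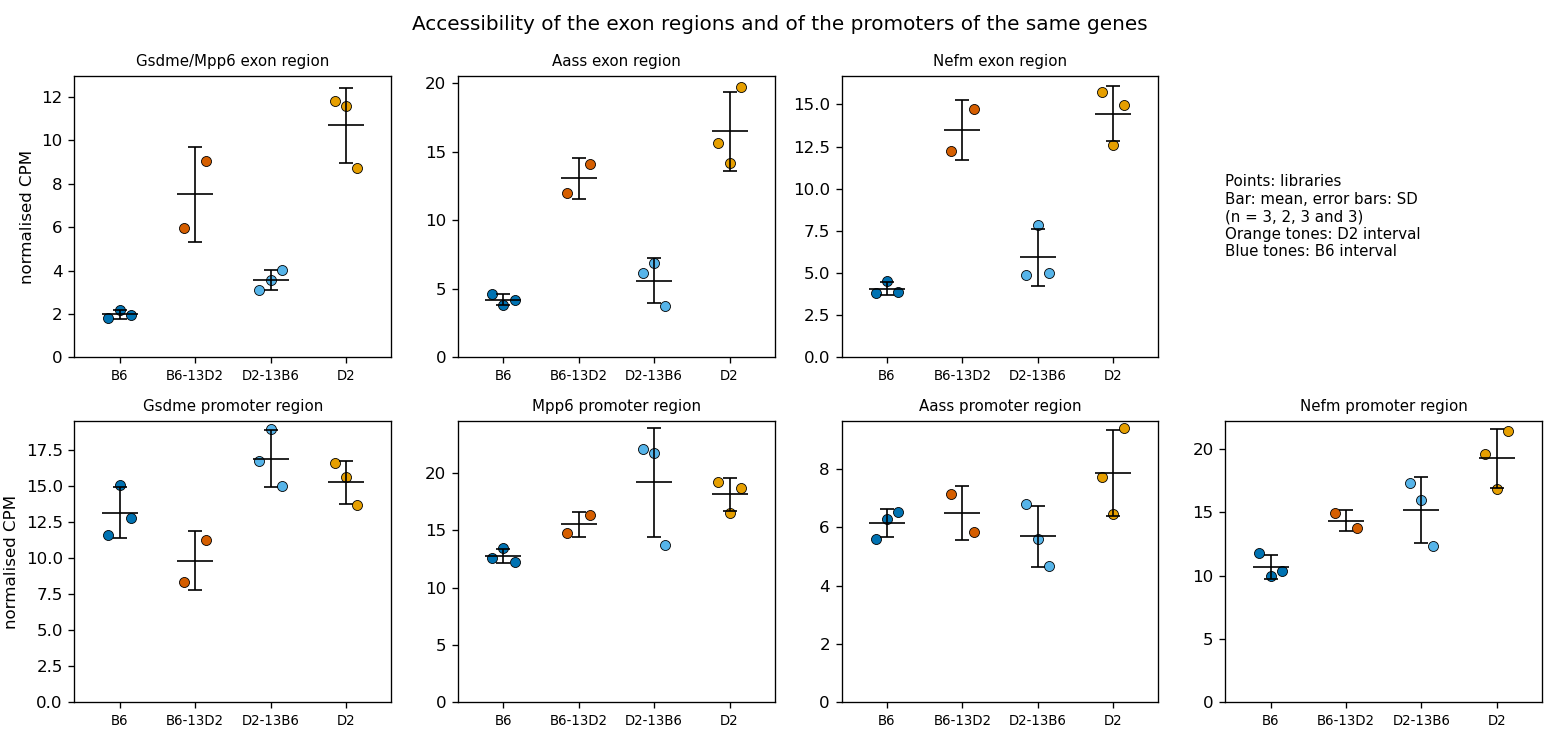
Normalised CPM of the 3 exon regions (top) and of the main promoter region of each gene (bottom) in the 4 lines; points are libraries, bars are means and error bars are SD (n = 3, 2, 3 and 3). In the top row every library with the D2 interval lies above every library with the B6 interval, and in the bottom row these groups overlap.

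At the promoters, differences with the interval were smaller or rested on few counts. Of the 8 promoter regions of the 4 genes, 0 were called by edgeR in B6-13D2 against B6 (3 at an unadjusted p under 0.05, 0 by DESeq2), where 0.474% of all regions tested were called. In D2 against D2-13B6, 1 of 8 was called (23.7% of all regions), the main Aass promoter. Both counts are near the background, so they say nothing particular of these promoters.

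The main promoter region is the one of each gene with the highest mean level. The main Gsdme promoter (chr6:50260911-50262704) was at 11.6, 15.1 and 12.8 normalised CPM in B6 and at 8.37 and 11.3 in B6-13D2, against 16.8, 18.97 and 15.0 in D2-13B6 and 16.6, 15.6 and 13.7 in D2. The log2 differences with the D2 interval were -0.42 ± 0.20 (SE, adjusted p = 0.620) and -0.14 ± 0.17 (adjusted p = 0.584), and neither passed. Over the alternatives the second ran from -0.22 to 0.03, so its sign is not settled. Both B6-13D2 libraries lay below all B6 libraries, whereas those of D2 and D2-13B6 overlapped. Mpp6 has its main promoter (chr6:50109170-50111308) at -86.8 kb from the exon region. Its level was 12.5, 13.4 and 12.2 in B6, 14.7 and 16.3 in B6-13D2, 22.1, 21.7 and 13.7 in D2-13B6, and 19.2, 16.5 and 18.7 in D2. The differences were 0.29 ± 0.19 (adjusted p = 0.821) and -0.08 ± 0.17 (adjusted p = 0.777). The B6 and B6-13D2 libraries did not overlap, whereas the D2 and D2-13B6 libraries did, and neither difference passed.

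At the main Aass promoter (chr6:23132196-23133477), B6 libraries gave 5.59, 6.28 and 6.52 normalised CPM, B6-13D2 7.14 and 5.83, D2-13B6 6.78, 5.61 and 4.68, and D2 7.70, 6.45 and 9.40. All 4 lines overlapped in part. The log2 difference was 0.09 ± 0.21 (SE, adjusted p = 0.978) on the B6 background and 0.46 ± 0.18 (adjusted p = 0.0498) on the D2 background. The second call was lost under 13 of 18 alternatives, among them RLE size factors (adjusted p = 0.131) and DESeq2 (adjusted p = 0.150), with adjusted p from 0.00190 to 1.00 over all of them. The main Nefm promoter (chr14:68122505-68125416) was at 11.7, 9.94 and 10.3 in B6, 14.9 and 13.8 in B6-13D2, 17.3, 15.9 and 12.3 in D2-13B6, and 19.6, 16.8 and 21.4 in D2. It differed by 0.42 ± 0.19 (adjusted p = 0.593) and 0.34 ± 0.16 (adjusted p = 0.132), both in the direction of the exon region. The B6 and B6-13D2 libraries did not overlap, whereas the D2 and D2-13B6 libraries did. The second difference was called with total-count scaling (adjusted p = 0.00112) and without D2 replicate 2 (adjusted p = 0.0238). Between the strains, D2 against B6, the main Nefm promoter was 0.85 ± 0.17 higher (adjusted p = 9.21e-05).

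Exon region minus main promoter, in log2 fold change, was 2.35 and 1.74 for Gsdme on the B6 and D2 backgrounds, 1.64 and 1.68 for Mpp6, 1.54 and 1.10 for Aass, and 1.32 and 0.94 for Nefm. Since the exon regions were chosen for their change, these differences are a description. In level, the Gsdme/Mpp6 exon region held 15.1% ± 0.474 (SD, n = 3) of the Gsdme promoter's counts in B6 and 75.9% ± 6.601 (n = 2) in B6-13D2, and 21.4% ± 4.73 (n = 3) in D2-13B6 and 69.7% ± 5.36 (n = 3) in D2. These ratios set 2 regions of different width side by side in the same libraries. The Aass exon region went from 68.9% ± 11.6 of the Aass promoter in B6 to 205% ± 52.1 in B6-13D2.

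The secondary promoter regions were weak. The 2 at the internal Mpp6 start (chr6:50178932-50179349 and chr6:50179383-50179606) averaged 0.258 to 1.27 normalised CPM over the lines. Of these, chr6:50179383-50179606 was 1.15 ± 0.50 (SE) higher in D2 than in D2-13B6 (adjusted p = 0.0875) and 0.18 ± 0.57 higher in B6-13D2 than in B6 (adjusted p = 0.984), on 2 to 33 counts per library. A second Aass promoter region (chr6:23127462-23127699) held 4 to 28 counts per library. It was at 0.200, 0.244 and 0.350 normalised CPM in B6 and 0.409 and 0.797 in B6-13D2, and at 0.468, 0.485 and 0.378 in D2-13B6 and 0.597, 0.750 and 0.802 in D2. The libraries did not overlap on either background, and it was 1.18 ± 0.57 (adjusted p = 0.645) and 0.68 ± 0.42 (adjusted p = 0.258) higher with the D2 interval. A second Nefm region (chr14:68125437-68126049) averaged 2.39 to 2.63 in the 4 lines. None of these 4 was called in an interval comparison. The promoters also differed in sequence from each other. The 250 bases before the start site, from RefSeq promoters on GRCm38.p6, held 34 CpG for the first Mpp6 start and 15 for Gsdme, but 4 for Aass, and 37.8% of 32851 promoters held fewer than that. The Aass (chr6:23132987-23133236, minus strand) and Mpp6 (chr6:50109991-50110240, plus strand) promoters are shown, with CpG in capitals, as those with the fewest and the most CpG of these.
Aass promoter: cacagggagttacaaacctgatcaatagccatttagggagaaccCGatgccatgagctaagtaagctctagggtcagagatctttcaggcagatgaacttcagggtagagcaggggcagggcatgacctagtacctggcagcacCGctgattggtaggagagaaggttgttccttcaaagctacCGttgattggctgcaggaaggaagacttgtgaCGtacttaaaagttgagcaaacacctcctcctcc
Mpp6 promoter: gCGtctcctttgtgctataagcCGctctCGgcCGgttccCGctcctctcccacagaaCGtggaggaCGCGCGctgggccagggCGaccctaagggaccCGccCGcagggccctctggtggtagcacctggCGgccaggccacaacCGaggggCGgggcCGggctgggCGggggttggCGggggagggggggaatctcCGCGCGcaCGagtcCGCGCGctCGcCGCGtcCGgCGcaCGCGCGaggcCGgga

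The other 51 regions of the windows lie beside the chosen exon regions, and some of those at Aass were candidates for the same choice. Their tests describe how far the pattern reached and are not independent of that choice. In B6-13D2 against B6, 3 were higher, 0 lower and 48 not called (over all regions, 0.139% were higher and 0.335% lower), with a median log2 fold change of 0.19 beside -0.01 over all regions. In D2 against D2-13B6, 7 were higher, 5 lower and 39 not called (8.53% and 15.2% over all regions), with medians of 0.34 and 0.04. Total-count scaling moved the latter median over all regions to 0.21 and gave 15 higher and 4 lower calls among these 51 regions, in place of 7 and 5.

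At Aass, accessibility followed the interval over a stretch of the gene. The region at -4.80 kb (chr6:23084869-23085782), in an intron and holding the second copy of the direct repeat, was at 1.03, 0.366 and 0.832 normalised CPM in B6 (31, 6 and 19 counts). It was at 4.00 and 2.74 in B6-13D2, 1.90, 1.58 and 1.13 in D2-13B6, and 5.29, 3.83 and 5.42 in D2. Libraries with the D2 interval lay above all others. The log2 differences were 2.09 ± 0.31 (SE, adjusted p = 5.17e-06) and 1.64 ± 0.23 (adjusted p = 1.02e-07), and both calls held under all 18 alternatives. Farther down the same intronic stretch, the region at -10.1 kb (chr6:23079124-23080848) was at 3.03, 2.93 and 4.20 in B6, 6.28 and 7.37 in B6-13D2, 3.92, 2.79 and 3.13 in D2-13B6, and 6.77, 6.40 and 7.65 in D2. It was 1.01 ± 0.22 (adjusted p = 0.00719) and 1.07 ± 0.19 (adjusted p = 5.93e-06) higher with the D2 interval, and the groups did not overlap. The first of these calls was lost with a minimum fold of 1.5, without B6 replicate 1 (adjusted p = 0.0968) and without B6 replicate 2 (0.0726). With B6-13D2 replicate 1 or 2 left out, a single B6-13D2 library remained, and the difference was 1.12 or 0.89. By the measure that chose the exon regions, the regions at -4.80 and -10.1 kb ranked 5 and 21 of the 85 regions off chromosome 13. Their calls are thus not independent of that choice, and how reads matching both copies of the direct repeat were counted is not given. At -13.8 kb (chr6:23075480-23077177, overlapping an Aass coding exon), the differences were 0.26 ± 0.21 (adjusted p = 0.875) and 0.80 ± 0.19 (adjusted p = 0.000655). On the other side of the exon region none of the 6 regions was called on the B6 background, and on the D2 background only the promoter was.

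At Nefm, the region at 23.04 kb (chr14:68139450-68140047), intergenic beyond the promoter, was at 1.497, 1.95 and 1.93 normalised CPM in B6 and at 4.82 and 4.68 in B6-13D2. In D2-13B6 it was at 1.66, 2.24 and 2.55, and in D2 at 2.98, 2.92 and 3.50. It was 1.42 ± 0.25 (SE) higher in B6-13D2 (adjusted p = 0.000270, and 0.0774 when tested against a minimum fold of 1.5), and 0.55 ± 0.21 higher in D2 than in D2-13B6 (adjusted p = 0.0512). The difference between these effects, the interaction, was 0.87 ± 0.33 (adjusted p = 0.0996). Between it and the exon region, the main promoter and the 4 other regions were not called in either comparison. The Nefl promoter region (chr14:68081807-68085540), the most accessible of the window at 17.3 to 25.5 normalised CPM, was 0.12 ± 0.18 (adjusted p = 0.958) and 0.56 ± 0.16 (adjusted p = 0.00689) higher with the D2 interval. Its second call was lost when only the D2 and D2-13B6 libraries were fitted (adjusted p = 0.0686) and with a minimum fold of 1.5 (adjusted p = 0.979).

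**Figure D2:**
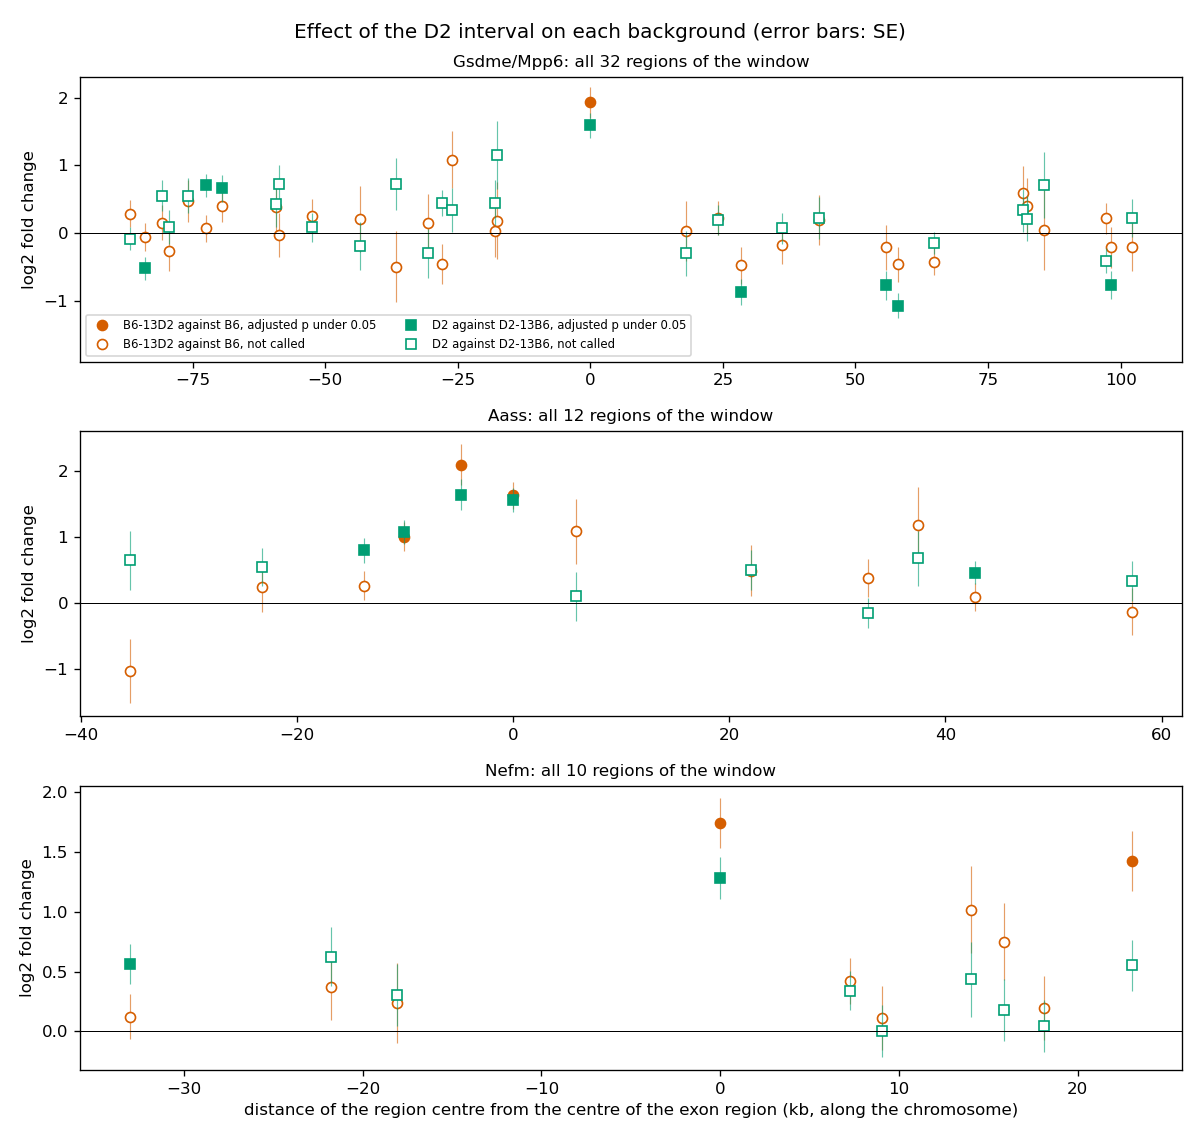
Log2 fold change with the D2 interval (y axis, error bars SE) on the B6 background (circles) and on the D2 background (squares) for every region of the 3 windows, against the distance in kb from the exon region (x axis); filled symbols passed an adjusted p of 0.05. At Gsdme/Mpp6 no region besides the exon region passed on the B6 background. On the D2 background 2 of the 31 others were higher and 5 lower, near the 8.53% and 15.2% of all regions. At Aass the regions at -4.80 and -10.1 kb are higher as well, and at Nefm the region at 23.04 kb is higher on the B6 background.

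In the Gsdme/Mpp6 window, 0 of the other 31 regions were called by edgeR in B6-13D2 against B6 (2 at an unadjusted p under 0.05, 0 by DESeq2), which is near the 0.474% of all regions. In D2 against D2-13B6, 2 of the 31 were higher and 5 lower (8.53% and 15.2% over all regions). These counts are near the background too, so they say nothing particular of this window. An intronic region of Mpp6 at -69.5 kb (chr6:50126922-50128231) had every library with the D2 interval above every library with the B6 interval. Its level was 3.56, 3.42 and 3.50 normalised CPM in B6, 4.23 and 4.98 in B6-13D2, 3.25, 2.03 and 3.03 in D2-13B6, and 4.44, 4.31 and 4.38 in D2. It was 0.40 ± 0.23 (SE, adjusted p = 0.753) higher on the B6 background and 0.66 ± 0.20 (adjusted p = 0.00876) higher on the D2 background. Another Mpp6 intronic region, at -72.5 kb (chr6:50123818-50125298), was 0.07 ± 0.20 (adjusted p = 0.982) and 0.70 ± 0.17 (adjusted p = 0.00128) higher. A thinly covered one at -26.2 kb (chr6:50170667-50171176) was at 0.566, 0.488 and 0.569 in B6 and 1.36 and 0.947 in B6-13D2, a difference of 1.08 ± 0.42 that did not pass (adjusted p = 0.433). Of 6 further intronic regions of Gsdme, 3 were higher on the D2 background and the 3 others were not called in D2 against B6. The region at 58.1 kb (chr6:50254888-50255381) was at 2.93, 3.35 and 3.46 normalised CPM in B6 and 1.82 and 2.89 in B6-13D2, but at 15.9, 22.6 and 12.3 in D2-13B6 and 6.49, 8.97 and 8.74 in D2. It was higher in both D2-background lines and highest in D2-13B6, which carries the B6 interval. D2 was 1.32 ± 0.20 (SE) above B6 (adjusted p = 6.77e-07) and 1.78 ± 0.25 above B6-13D2 (adjusted p = 8.62e-08), and D2-13B6 was 2.39 ± 0.20 above B6 (adjusted p = 3.64e-16). D2 was 1.07 log2 units below D2-13B6 (log2 fold change -1.07 ± 0.18, adjusted p = 3.01e-06), opposite to the exon region. Regions at 28.4 kb (chr6:50225200-50225798) and 55.8 kb (chr6:50252793-50253016) had the same order of lines, with 8.51 ± 2.32 (SD) and 4.58 ± 1.42 in D2-13B6, 4.64 ± 0.275 and 2.68 ± 0.398 in D2, and 2.69 ± 0.609 and 1.32 ± 0.169 in B6. These 3 regions were highest in the line in which fibroblast promoters were also most accessible, and the part of that in their levels was not tested.

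**Figure D3:**
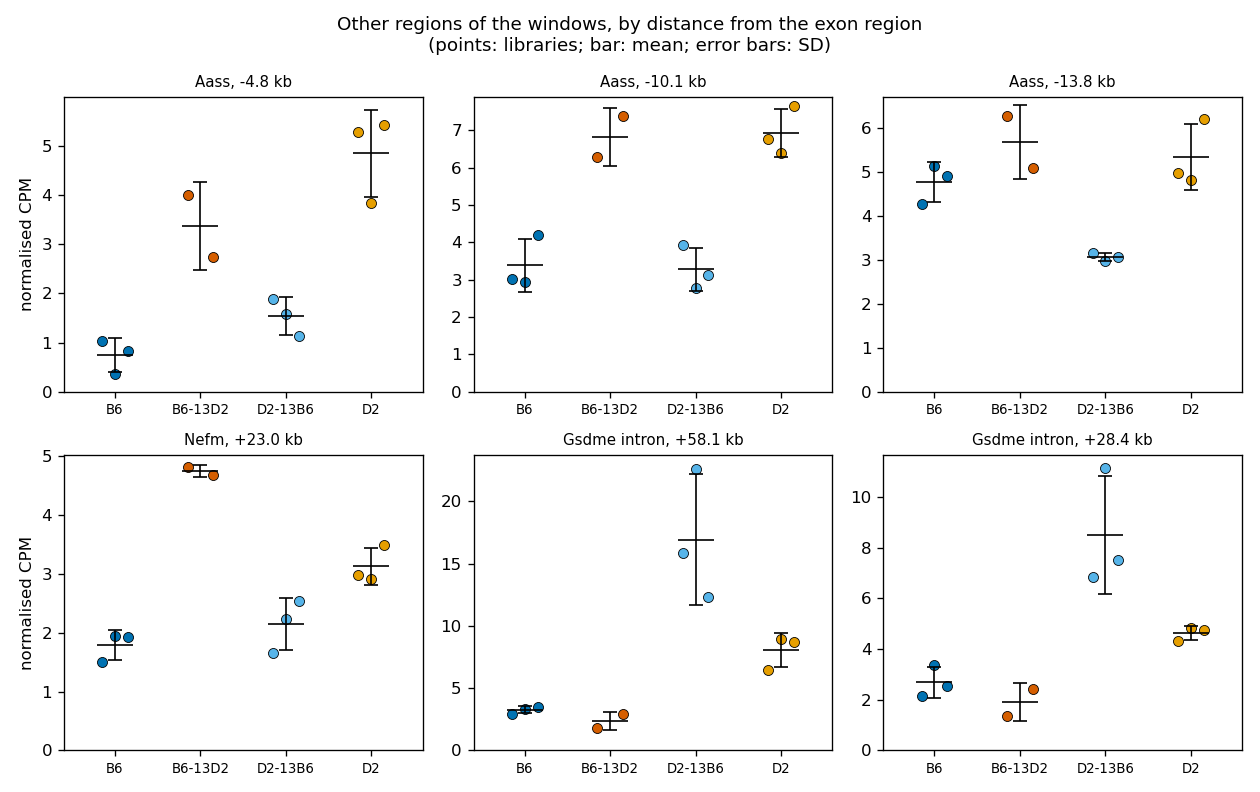
Normalised CPM of 6 further regions of the windows by line, titled by their distance from the exon region; points are libraries, bars means and error bars SD. In the Aass regions at -4.8 and -10.1 kb both lines with the D2 interval lie above both with the B6 interval, the Nefm region at +23 kb is highest in B6-13D2, and the 2 Gsdme introns are highest in D2-13B6.

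Over the strain comparisons, which share their libraries with the interval comparisons, calls among the 51 other regions came to 12 in D2 against B6 (11 higher and 1 lower; 22.5% of all regions were called) and to 16 in D2-13B6 against B6 (10 higher and 6 lower; 41.7%). Total-count scaling turned the latter to 7 higher and 16 lower. In D2 against B6-13D2, 5 of 51 were called (18.8%), all in the Gsdme/Mpp6 window and all higher in D2. These were 4 intronic regions and the Gsdme promoter at 0.64 ± 0.20 (SE, adjusted p = 0.0129). The count was 3 without B6-13D2 replicate 1, and 8 without D2-13B6 replicate 2 or without D2-13B6 replicate 3. With the D2 interval in both lines, 0 of the other 20 regions at Aass and Nefm were called by edgeR (4 at an unadjusted p under 0.05, 0 by DESeq2). For the interaction, the difference between backgrounds in the effect of the interval, 0 of the 51 were called by edgeR (6.54% of all regions), 5 had an unadjusted p under 0.05 and 0 were called by DESeq2. The 3 exon regions, chosen as higher on both backgrounds, gave interaction values of 0.34 ± 0.30 (SE) for Gsdme/Mpp6, 0.07 ± 0.28 for Aass and 0.46 ± 0.27 for Nefm. At the window edges, no region just inside or just outside was called in B6-13D2 against B6 except the last of the Nefm window, at 23.04 kb. The region just before that window (chr14:68078488-68078997) was at 1.32, 2.47, 1.04 and 1.77 normalised CPM in B6, B6-13D2, D2-13B6 and D2, with log2 differences of 0.85 (adjusted p = 0.389) and 0.75 (adjusted p = 0.0383) with the D2 interval. The next region outside it on the other side (chr14:68151296-68151561) was at 0.755, 0.844, 1.41 and 1.06 normalised CPM in B6, B6-13D2, D2-13B6 and D2.

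Regions elsewhere that hold the same repeats were then examined, an extension chosen with these values known and given as counts without a test. Off chromosome 13 and outside the windows, 780 tested regions held a copy of the Nefm block. Of these, 18 (2.31%) were higher and 2 lower in B6-13D2 against B6, where 0.0834% of all regions off chromosome 13 were higher. In D2 against D2-13B6, 296 (37.9%) were higher, against 7.63%. Both comparisons called 16 higher (2.05%), against 0.0362% of all regions. The median log2 fold changes of the 780 were 0.13 and 0.57, against -0.01 and 0.03. Among the 332 copies with at least 90% identity, 14 (4.22%) and 167 (50.3%) were higher. The 18 depended on single libraries, with 9 called without B6 replicate 1, 7 without B6-13D2 replicate 1 and 9 without B6-13D2 replicate 2, and the 296 became 192 without D2 replicate 3. The D2-13B6 line, low on the stem cell markers, enters the second comparison, and the part of that in these counts was not tested. Copies share sequence with the Nefm exon region. How reads matching several places were counted is not given in the sources used here, so signal at copies cannot be told apart from signal at their relatives by these counts alone.

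Of 140 tested regions with a copy of the Aass repeat, 0 were called higher in B6-13D2 against B6 by edgeR (11 at an unadjusted p under 0.05, 0 by DESeq2), near the 0.0834% of all regions. In D2 against D2-13B6, 26 (18.6%) were higher, against 7.63%, the same direction as for the Nefm block. The median log2 fold changes of the 140 were 0.08 and 0.36, against -0.01 and 0.03. The Gsdme/Mpp6 array had no copy to compare. Most copies of either repeat thus did not pass in B6-13D2 against B6.

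**Figure D4:**
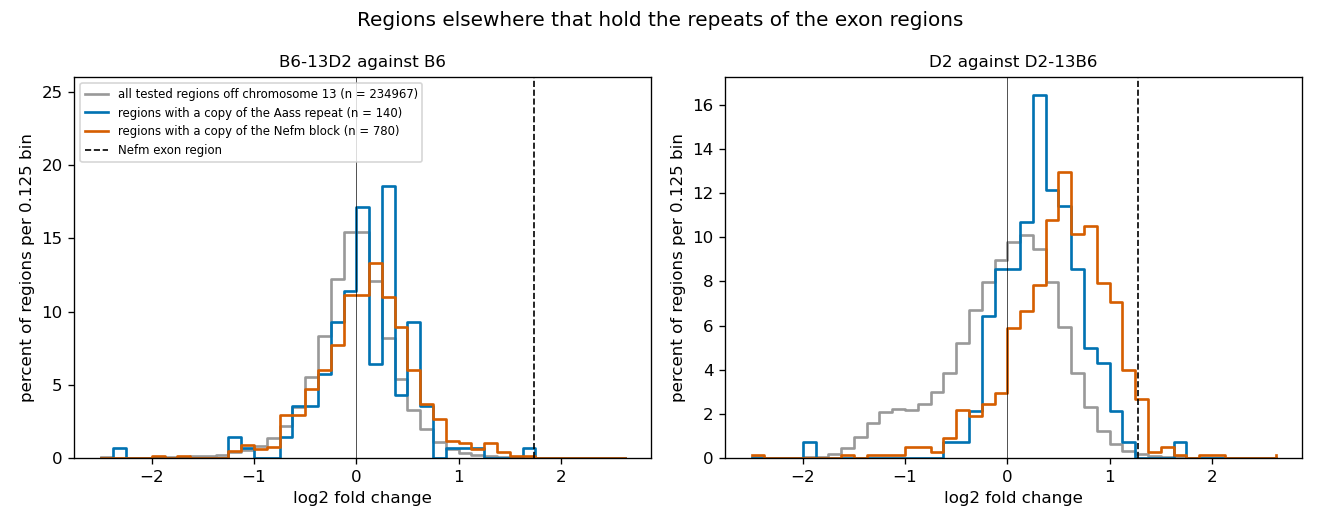
Percent of regions (y axis) per bin of log2 fold change (x axis) for B6-13D2 against B6 (left) and D2 against D2-13B6 (right), for all tested regions off chromosome 13, the 140 with a copy of the Aass repeat and the 780 with a copy of the Nefm block; the dashed line is the Nefm exon region. Copies of the Nefm block have a median of 0.13 on the left and 0.57 on the right, below the value of the exon region in both.

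Of the 80 regions outside the windows that were higher in both interval comparisons off chromosome 13, 16 (20%) held the Nefm block, against 0.332% of all regions tested. They included all 4 of the next ranked ones. The region chr12:88339654-88342221, whose copy is printed above, averaged 7.12, 18.05, 3.74 and 9.24 normalised CPM in B6, B6-13D2, D2-13B6 and D2. The region chr5:143134037-143135554 averaged 4.87, 11.1, 6.68 and 13.998, the region chr19:38386421-38388723 averaged 3.35, 9.49, 3.27 and 6.87, and the region chr16:18010630-18011893 averaged 2.71, 6.61, 5.64 and 12.4. In each, the D2-interval line was the higher of its background pair, which follows from choosing regions higher in both interval comparisons. The order of the backgrounds differed: at the chromosome 12 region both B6-background lines were above the line with the same interval on the D2 background. Among 38171 regions off chromosome 13 with a comparable range, the one whose log2 CPM over the 11 libraries was most like the mean of the exon regions was the same chromosome 5 region (Pearson's r = 0.987), which lies 3404 bp from the start of the pseudogene Olfr718-ps1 and holds a copy of 98.9% identity. It was followed by chr3:8805043-8806557 (r = 0.979) and chr15:9226411-9228644 (r = 0.961), which hold no copy of the block. On chromosome 13, the most similar of 2690 regions was chr13:66026949-66027837 (r = 0.934), at 2.55, 11.4, 2.15 and 11.4 normalised CPM.

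Promoters of genes related to the members by function were called about as often as other promoters. The 4 families had 56 promoter regions, 8 of them those of the 4 genes given above. Of the other 48, edgeR called 0 in B6-13D2 against B6 (1 at an unadjusted p under 0.05, 0 by DESeq2), beside 0.263% of all promoter regions. In D2 against D2-13B6, 13 of 48 were called, 1 higher and 12 lower, with 4 of the lower at Dlst and 3 at Vim. Of all 38070 promoter regions 23.8% were called, 3060 higher and 5997 lower. Neither total stands apart from the background, and the split by direction was not tested. Over all 56 the count was 14. Leaving out D2-13B6 replicate 2 or D2 replicate 3 gave 8, and leaving out D2-13B6 replicate 3 gave 22. Of the gasdermins, whose cleaved forms open pores in membranes, 0 of 6 promoter regions were called in either, and 5 of 10 genes had a promoter region. Among 16 regions of the palmitoylated membrane guanylate kinases, 3 were lower in D2, at Mpp2 (-0.85, adjusted p = 4.19e-05), Mpp3 (-0.97, adjusted p = 0.000744) and Mpp4 (-0.93, adjusted p = 1.76e-05). Among 21 regions of lysine breakdown, the Aass promoter was the 1 higher and 6 were lower, 2 at Phykpl, a phospholysine lyase, and 4 at Dlst, a subunit of the oxoglutarate dehydrogenase complex. Among 13 regions of neurofilaments and related intermediate filaments, the Nefl promoter was higher and 3 regions at Vim, the filament of mesenchymal cells, were lower in D2.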

How the data were processed

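ATAC-seq libraries from 4 mouse embryonic stem cell lines were deposited as 1 table of whole-number counts per region, the unit used throughout. FAST-ATAC on 100000 cells gave each library, read at 150 bp, per the labels' protocols. Per the file headers, duplicate and mitochondrial reads had been removed before the authors counted. The submitters' processing notes name mm10, Trimmomatic 0.39, BWA 0.7.5, Picard 2.0.1, MACS 1.4.2, bedtools 2.9.2 and edgeR 3.34.1, without their roles. Whether reads or fragments were counted, any shift for the transposase and the handling of reads that match several places are not given in the sources used here. Each of these could change the counts of repeat-bearing regions. Coordinates are printed as the table lists them, and no region ran past a GRCm38 chromosome end.

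From the counts, edgeR 4.0.16 in R 4.3.3 was run with TMM normalisation, filterByExpr by line, robust quasi-likelihood fitting and 1 coefficient per line over all 11 libraries, which share 1 estimate of the spread. Benjamini-Hochberg adjustment covered 246840 of 248336 regions, and an adjusted p under 0.05 was called. Standard errors are the log2 fold change over the root of F. Normalised CPM relate counts to the TMM-adjusted total, with a prior count of 2 on the log2 scale. Total counts of 15198496 to 43042955 limit the precision, and the spread between libraries of a line beyond counting error was estimated in the fit. The script was tested on simulated data. Repeats were matched to the RefSeq GRCm38.p6 sequence with BLAST 2.17.0 (at least 80% identity over at least 50% of the repeat, and 50 bp of overlap with a region); annotation was GENCODE M21. All 11 count columns were mapped to samples by library name.

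The members and gene lists were chosen with earlier results of these data known. Named regions were the exon regions, all promoter regions of the 4 genes, the 3 most accessible other regions of each window, regions called in both interval comparisons, the window edges, the next 3 regions by the measure that chose the exon regions, and the 5 off and 3 on chromosome 13 with the most similar profile. The Gsdme regions at 28.4 and 55.8 kb, the Mpp6 regions at -69.5 and -26.2 kb, and the fourth of the next ranked regions, were named after their values were seen. Alternatives were RLE size factors, total-count scaling, no filter, DESeq2 1.42.0, only the libraries compared, a minimum fold of 1.5, a replicate block, promoter distances of 500 and 2000 bp, and leaving out each library. The alternatives for repeat copies and family promoters were chosen after seeing the data.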

Additional observations from a re-analysis of the deposited data

How the results depend on the processing

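Technical replicates of 1 line per genotype limit all tests to differences between cell lines, and regions under about 1 normalised CPM were too thinly covered to show modest differences. The calls of the Aass region at -4.80 kb held under every alternative run in both interval comparisons. Among the 51 window regions besides the exon regions, calls under all alternatives were 1 to 3 in B6-13D2 against B6 (3 as reported, 1 with a minimum fold of 1.5), 3 to 19 in D2 against D2-13B6, 4 to 13 in D2 against B6, 6 to 23 in D2-13B6 against B6, 3 to 8 in D2 against B6-13D2 and 0 to 2 for the interaction. The counts of window regions below are over all 54 and include the 3 exon regions, whose calls follow from how they were chosen and are no sign of stability. A minimum fold of 1.5 lowered the counts to 6 in D2 against D2-13B6, 7 in D2 against B6, 6 in D2-13B6 against B6 and 3 in D2 against B6-13D2, family promoters called in D2 against D2-13B6 to 1, and copies of the Nefm block called higher to 5 and 67. Fitting only the libraries compared gave 9 regions in D2 against B6-13D2, 9 family promoters in D2 against D2-13B6 and 48 copies of the block in B6-13D2 against B6. Total-count scaling gave 2 regions for the interaction in place of 0. Promoters within 500 bp left 5 of 8 promoter regions. At 90% identity, 167 copies were higher in D2 against D2-13B6, of fewer copies tested. With single libraries left out, calls ranged from 5 to 6 in B6-13D2 against B6, 12 to 20 in D2 against D2-13B6, 12 to 16 in D2 against B6, 15 to 21 in D2-13B6 against B6, 3 to 9 in D2 against B6-13D2 and 0 to 1 for the interaction; family promoters ranged from 8 to 22 in D2 against D2-13B6, and copies of the block from 7 to 26 and from 192 to 322. Except where fewer regions or libraries entered, the cause was not tested.

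Libraries share replicate numbers across lines, but same-numbered libraries did not deviate together (15 pairs, correlations of -0.05 to 0.07), so that the numbers do not pair them. With the replicate number as a block, 8 regions were called in D2 against B6-13D2, and 6, 17, 16, 19 and 0 in the other comparisons in the order B6-13D2 against B6, D2 against D2-13B6, D2 against B6, D2-13B6 against B6 and the interaction.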
